A study of Mus musculus with 4 samples.

Results

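Neuropeptide Y and adrenergic signalling was described through 6 genes in 4 RNA sequencing libraries of mouse periosteal macrophages. The members were taken by gene symbol: Npy, the neuropeptide itself, the adrenergic receptor genes Adra1a and Adrb1, and Ramp1, Ramp3 and Calcrl, which encode the subunits of receptors for calcitonin gene-related peptide (CGRP) and adrenomedullin. Of the 17532 genes in either table, 5 of the 6 members were listed in both tables. Adrb1 had no row and was not analysed here. The members were chosen by measured levels, since Npy and Adra1a were known to differ strongly between the cell subsets, so every difference between the subsets below is a description without a test.

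The cells came from periosteum, the membrane that covers bone, of male wild-type C57BL/6 mice at postnatal day 28. They were sorted with antibodies to CD45 and Cx3cr1 and to ACE or CD74, which gave the CX3CR1+ACE+ and CX3CR1+CD74+ subsets. All cells were then cultured in serum with 10 ng/ml M-CSF, a growth factor of macrophages, and received rmPostn (recombinant periostin, a secreted matrix protein) at 500 ng/ml, or PBS as vehicle, over 24 h. Each of the 4 combinations of subset and treatment was 1 library, and the labels do not say how many mice were pooled. No difference within a subset therefore had a replicate spread behind it.

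Neuropeptide Y is released together with noradrenaline by sympathetic nerve endings, and some cells outside the nervous system also make it. It acts through Y receptors, which lower cyclic AMP through Gi proteins. Noradrenaline acts on alpha and beta adrenergic receptors, of which the receptor encoded by Adra1a raises cytosolic calcium through Gq and that encoded by Adrb1 raises cyclic AMP through Gs. CGRP comes from sensory nerve endings. Its receptor pairs the product of Calcrl with that of Ramp1, whereas the product of Calcrl with that of Ramp2 or Ramp3 binds adrenomedullin. In bone, sympathetic and sensory fibres run in the periosteum, and both kinds of signal are known to act on bone-forming cells.

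Recovered reads ranged from 11846312 to 19798150 per library. Levels are scaled counts per 1000000 (CPM), and 1 read equalled 0.0491 to 0.0897 CPM. All 12 macrophage markers had reads in all 4 libraries and summed to between 6644 and 7707 CPM. Most of that sum was Lyz2, at 4386 to 6004 CPM, and Cx3cr1 had 14.5 to 21.7 CPM. Neutrophil markers summed to more, between 12559 and 27656 CPM. Cd74 was higher in the CD74+ libraries (850 and 1222 CPM) than in the ACE+ libraries (531 and 552), but Ace did not follow its label. The libraries labelled CX3CR1+ACE+ had 2.76 CPM of Ace with vehicle and 2.80 with periostin, and those labelled CX3CR1+CD74+ had 0.897 and 9.51. In bulk libraries, fewer cells of a type and less RNA per cell cannot be told apart. Ratios are ratios of levels with exact 95% intervals from the reads, which cover counting error only. A gene was said to have risen or fallen when it changed at least 2-fold after adding 1 CPM to both levels; genes below 1 CPM in both libraries were left out, and within a subset so were genes that its table does not list.

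Npy was the member with the highest level in CD74+ cells and stood far lower in ACE+ cells. Npy (ENSMUSG00000029819, GRCm38 chromosome 6, 49822710 to 49829507, plus strand, 4 exonic blocks, none shared with another gene) encodes the precursor of neuropeptide Y. It had 5.08 CPM (81 reads) in ACE+ vehicle, 8.98 (183 reads) in ACE+ periostin, 87.2 (1459 reads) in CD74+ vehicle and 162 (1811 reads) in CD74+ periostin. Both CD74+ libraries lay above both ACE+ libraries, and within each subset the periostin library was the higher one. Without periostin the level in CD74+ cells was 17.2-fold that in ACE+ cells (13.7 to 21.7), and with periostin it was 18.1-fold (15.5 to 21.2). Ranked over all genes compared, this log2 difference was number 3 of 14690 with vehicle and number 4 of 15054 with periostin.

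**Figure D1:**
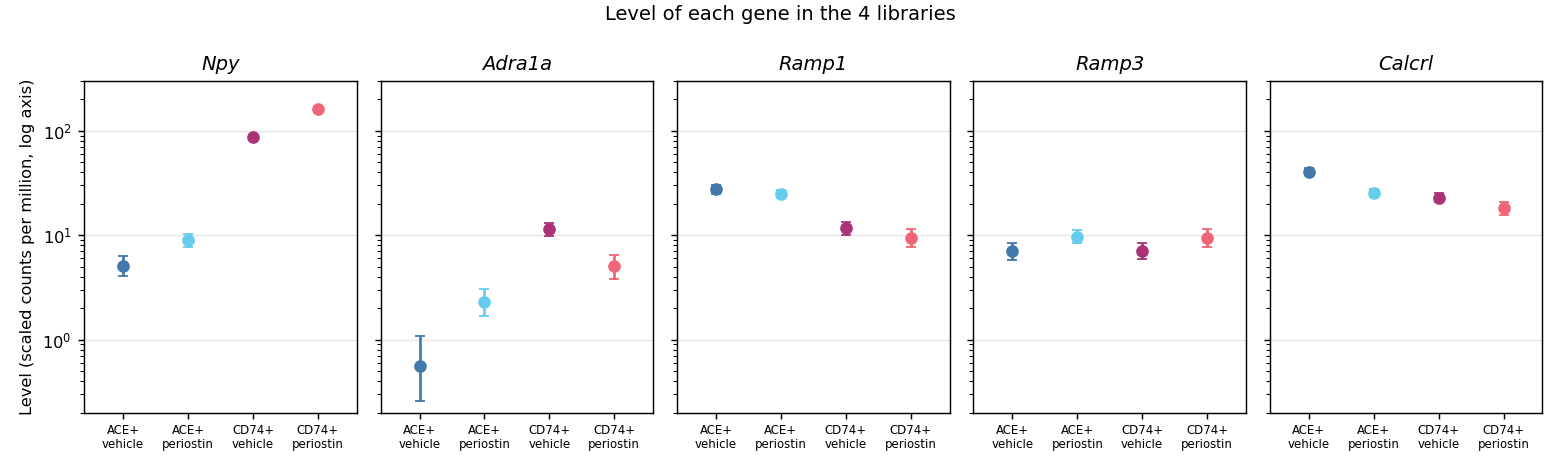
Level of the 5 listed members in each of the 4 libraries, in CPM on a log axis; each point is 1 library and bars are exact 95% Poisson intervals of the reads. Npy runs from 5.08 to 162 CPM with both CD74+ libraries on top, Adra1a is lowest at 0.565 CPM in ACE+ vehicle, Ramp1 is higher in both ACE+ libraries, and Ramp3 stays between 7.03 and 9.66 CPM.

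The 250 bases before the start of Npy and of Ramp1 are shown because these 2 members were past 2-fold between the subsets with both treatments, in opposite directions. They are RefSeq sequence on GRCm38.p6, both on the plus strand, with capitals marking the 1 motif found, a GC box (GGGCGG) that starts at -95 in Npy.
Npy, chr6:49822460-49822709: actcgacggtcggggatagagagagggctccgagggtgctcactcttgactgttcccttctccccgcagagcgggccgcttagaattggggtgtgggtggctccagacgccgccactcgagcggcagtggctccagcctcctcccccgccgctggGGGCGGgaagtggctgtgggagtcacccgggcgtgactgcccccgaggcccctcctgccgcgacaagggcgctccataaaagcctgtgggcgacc
Ramp1, chr1:91179572-91179821: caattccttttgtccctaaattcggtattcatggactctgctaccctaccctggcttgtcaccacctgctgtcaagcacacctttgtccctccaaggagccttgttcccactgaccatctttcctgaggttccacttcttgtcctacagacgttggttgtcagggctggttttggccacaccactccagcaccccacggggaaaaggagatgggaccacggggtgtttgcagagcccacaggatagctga
The Npy window was 69.2% G and C and the Ramp1 window 54%, against a median of 52.4% over 32851 such windows. Both strands were searched for the GC box, which 32.7% of all windows hold, and for a cyclic AMP response element (TGACGTCA, 1.55% of windows), an AP-1 site (TGACTCA, 4.46%), an E-box (CACGTG, 6.02%) and a TATA box (TATAAA, 12.4%). The last 4 sets of letters were in neither window, and Ramp1 had none of the 5.

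Per kilobase of exon length, Npy stood close to Ramp1 and Calcrl only in ACE+ vehicle. In ACE+ vehicle, Npy (8.98 CPM per kilobase), Ramp1 (9.09) and Calcrl (8.31) stood close together. In CD74+ vehicle, Npy had 154 CPM per kilobase against 3.86 for Ramp1 and 4.68 for Calcrl. With periostin Npy had 15.9 CPM per kilobase in ACE+ cells, above the 8.28 of Ramp1, and 287 in CD74+ cells. Adra1a, whose exons come to 8144 bases, had between 0.0693 and 1.41 CPM per kilobase, the lowest of the 5 in each library.

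The Npy ratio of periostin to vehicle was alike in size in the subsets, 1.77 (1.35 to 2.32) in ACE+ cells and 1.86 (1.74 to 1.997) in CD74+ cells. Neither reached 2-fold with 1 CPM added, at log2 changes of 0.71 and 0.89. In CD74+ cells the median change of short genes was above 0. Npy, at 566 bases, lies in the shortest of 10 length classes of genes, whose median log2 change was 0.45, and 0.44 remained for Npy after subtracting it. In ACE+ cells that median was 0.06.

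Adra1a was lowest in ACE+ vehicle and moved with periostin in opposite directions in the subsets. Adra1a (ENSMUSG00000045875, chromosome 14, 66635251 to 66771168, plus strand, no exon shared with another gene) encodes the alpha-1A adrenergic receptor. It had 0.565 CPM (9 reads) in ACE+ vehicle and 2.31 (47 reads) in ACE+ periostin, against 11.5 (192 reads) in CD74+ vehicle and 5.02 (56 reads) in CD74+ periostin. Both CD74+ libraries were above both ACE+ libraries, and the subsets lay closer with periostin than with vehicle. With periostin it rose 4.08-fold in ACE+ cells (1.98 to 9.48) and fell 2.29-fold in CD74+ cells (1.69 to 3.14). The distance between CD74+ and ACE+ cells was 20.3-fold (10.49 to 45.1) with vehicle, number 4 of 14690 genes by log2 difference, and 2.18-fold (1.45 to 3.28) with periostin. Among all genes 1.47% rose in ACE+ cells and 5.25% fell in CD74+ cells by the same rule. With genes counted that the CD74+ table does not list, an addition made after seeing the data, 9.52% fell and 7.55% rose there. Of 13129 genes compared in both subsets, 12 rose in ACE+ cells and fell in CD74+ cells, and 28 did the reverse. A further 21 rose in both subsets and 8 fell in both. Adra1a was chosen for its difference between the subsets, and both of its periostin ratios share the vehicle libraries of that difference. The shares and counts over all genes are therefore not independent of the choice, and nothing is read from them. The fall in CD74+ cells was no longer 2-fold once the median of genes of like length was subtracted (log2 change -0.87), and neither change was 2-fold with 5 CPM added.

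The genes whose profile over the 4 libraries lay nearest to that of Adra1a included the cartilage gene Acan. Among 15559 genes searched, the 5 with the smallest distance between centred log2 levels, all with at least 1 CPM in a library, were Dusp13, a phosphatase gene (distance 0.26), Acan, the core protein gene of the cartilage proteoglycan aggrecan (0.32), the sterol acyltransferase gene Soat2 (0.60), Cdkn1c, an inhibitor of the cell cycle (0.62), and the linker histone gene Hist1h1e (0.69). Acan had 15.9 CPM with vehicle and 41.4 with periostin in ACE+ cells, and 116 and 65.04 in the CD74+ ones. The 14 chondrocyte markers summed to 278 and 886 CPM, then 1401 and 1062, in the same order, 1 of them without reads in CD74+ periostin. Of 12 chondrocyte markers compared in ACE+ cells 9 rose with periostin and 0 fell (1.47% and 1.3% of all genes), and of 14 compared between the vehicle libraries 13 were at least 2-fold higher in CD74+ cells, where 3.88% of all genes were. In CD74+ cells 1 of 13 rose with periostin and 1 fell, and between the periostin libraries 2 of 13 were at least 2-fold higher in CD74+ cells and 1 lower. The part of chondrocytes in the Adra1a values was not tested.

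The genes nearest to Npy lay at larger distances than those nearest to Adra1a, from a profile with a larger spread. The pseudogene Gm6166 lay at a distance of 1.05, the calcium channel gene Cacna1b at 1.07, and 3 small non-coding RNA genes at 1.34 to 1.41. The whole spread of the Npy profile was 4.03 and that of the Adra1a profile 2.21. Distances were not scaled by this spread. Cacna1b, which encodes the pore of the N-type calcium channel of nerve endings, had 1.44 and 1.77 CPM in ACE+ cells, and 15.1 and 24.3 in the CD74+ libraries. Of 10 neuron markers, 4 had no row, among them Th and Dbh, the genes of noradrenaline synthesis, and the other 6 summed to 68.5 and 55.9 CPM in ACE+ cells, and 45.4 and 44.9 in the CD74+ libraries. Uchl1 made up most of that, and 1 of the 6 had 0 reads in CD74+ vehicle and 3 in CD74+ periostin. Megakaryocyte and platelet markers summed to 4385 and 4040 CPM in ACE+ cells, against 1683 and 2720 in the CD74+ libraries. B-cell markers summed to 545 and 457 CPM in ACE+ cells, and 25.1 and 17.2 in the CD74+ libraries. Osteoblast and osteocyte markers summed to 741 and 563 CPM in ACE+ cells, and 192 and 194 in the CD74+ libraries. Chondrocyte markers summed to more in CD74+ cells, by far with vehicle and with 1062 against 886 CPM with periostin, where Npy was 18.1-fold higher. The part of these cell types in the Npy values was not tested.

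**Figure D2:**
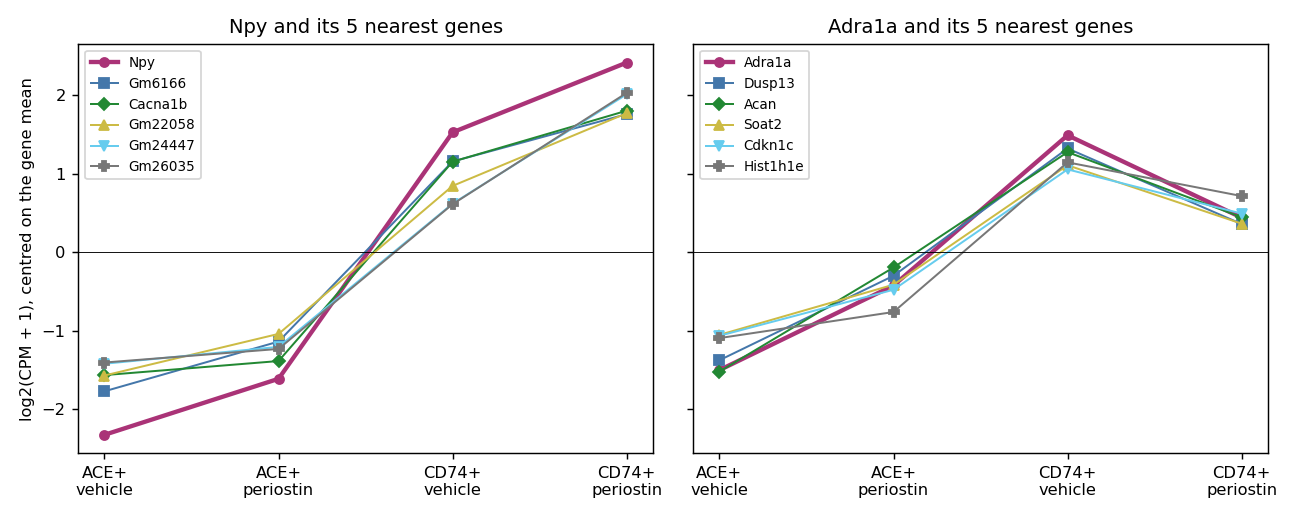
Levels as log2(CPM + 1), centred on each gene's mean over the 4 libraries, for Npy (left) and Adra1a (right) and the 5 genes nearest to each; lines join the 4 libraries only to guide the eye. The Adra1a neighbours, at distances of 0.26 to 0.69, follow its peak in CD74+ vehicle, and the Npy neighbours, at 1.05 to 1.41, have a flatter course than Npy.

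The receptor subunit genes for CGRP and adrenomedullin had the opposite or no difference between the subsets. Ramp1 (ENSMUSG00000034353, chromosome 1, 91179822 to 91225196, plus strand), which makes the Calcrl product a CGRP receptor, had 27.5 and 25.02 CPM in ACE+ vehicle and periostin, and 11.7 and 9.51 in the CD74+ ones. Both ACE+ libraries lay above both CD74+ libraries. The level in ACE+ cells was 2.36-fold that in CD74+ cells with vehicle (1.99 to 2.80) and 2.63-fold with periostin (2.13 to 3.28). Ratios of periostin to vehicle were 0.911 (0.7999 to 1.04) in ACE+ cells and 0.816 (0.638 to 1.04) in CD74+ cells, intervals that include no change.

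Calcrl (ENSMUSG00000059588, chromosome 2, 84330626 to 84425411, minus strand) encodes the calcitonin receptor-like receptor. Its level was 40.6 CPM in ACE+ vehicle, 25.3 in ACE+ periostin, 22.8 in CD74+ vehicle and 18.2 in CD74+ periostin. ACE+ vehicle stood above the other 3, and the intervals of ACE+ periostin (23.1 to 27.5) and CD74+ vehicle (20.6 to 25.2) overlapped. The ratio of periostin to vehicle was 0.623 (0.553 to 0.700) in ACE+ cells and 0.797 (0.669 to 0.948) in CD74+ cells, both under 2-fold. ACE+ cells had 1.78-fold the level of CD74+ cells with vehicle (1.56 to 2.02) and 1.39-fold with periostin (1.18 to 1.64). Calcrl is a known gene of endothelial cells, and the 10 endothelial markers, all with reads in every library, summed to 932 and 977 CPM in ACE+ cells, and 580 and 498 in the CD74+ libraries. Their part in the Calcrl values was not tested.

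Ramp3 (ENSMUSG00000041046, chromosome 11, 6658521 to 6677475, plus strand), whose product turns that receptor into one for adrenomedullin, differed least between the subsets. It had 7.03 and 9.66 CPM in ACE+ vehicle and periostin, and 7.12 and 9.42 in the CD74+ ones. The ratio of CD74+ to ACE+ cells was 1.01 (0.776 to 1.32) with vehicle and 0.975 (0.762 to 1.24) with periostin. Ramp3 was 1.38-fold higher with periostin in ACE+ cells (1.09 to 1.75) and 1.32-fold in CD74+ cells (1.01 to 1.74). In CD74+ cells most of that went when the median log2 change of genes of like length, 0.30, was subtracted. An antisense gene, Gm11978, overlaps 7.32% of its exon length, and nothing in the sources used here gives the strand setting of the counting.

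**Figure D3:**
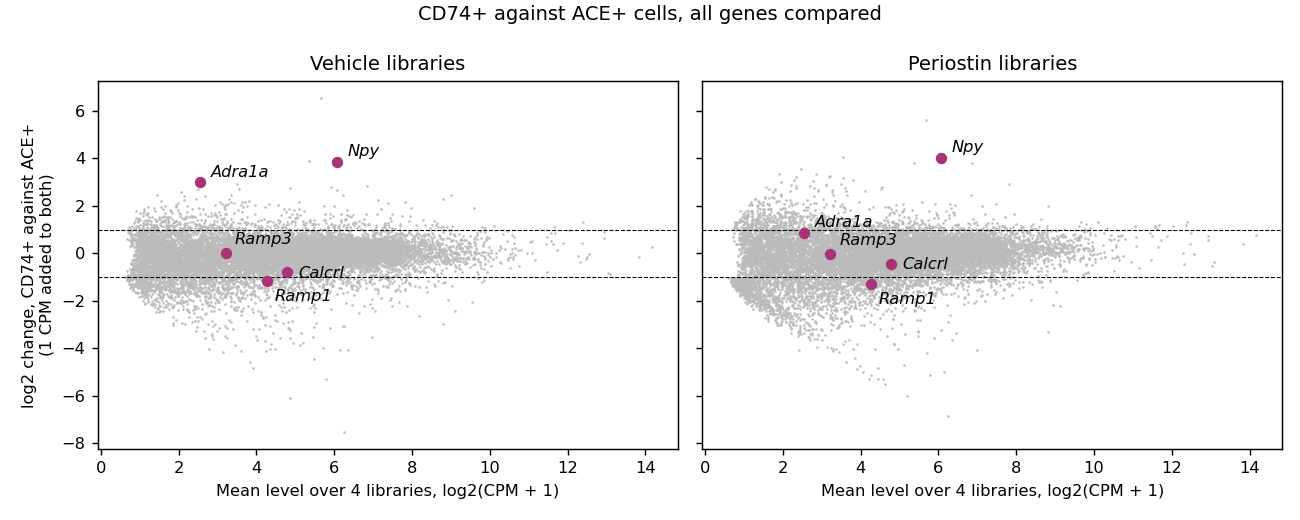
Log2 change of CD74+ against ACE+ cells, with 1 CPM added to both levels, against the mean level over the 4 libraries, for 14690 genes with vehicle (left) and 15054 with periostin (right); grey points are genes, coloured points the 5 listed members, and dashed lines mark 2-fold. Npy stands near the top in both panels, Adra1a only in the left one, and Ramp1 just below the lower line in both.

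Between vehicle libraries, 2 of the 5 listed members were at least 2-fold higher in CD74+ cells, where 3.88% of all genes were, and 1 was at least 2-fold lower, where 10.1% were (14% either way). Between periostin libraries 1 was higher, against 7.89% of all genes, and 1 was lower, against 15.9% (23.8% either way). Since the members were chosen for this contrast, nothing is read from these counts. With periostin against vehicle, 1 of the 5 members rose and 0 fell in ACE+ cells, where 1.47% and 1.3% of all genes did (2.77% either way). In CD74+ cells 0 rose and 1 fell, where 6.69% and 5.25% of all genes did (11.9% either way). The member was Adra1a in both cases. Its periostin changes share the vehicle libraries with the contrast it was chosen for, so nothing is read from these counts either. The median log2 change of the 5 members was 0.41 in ACE+ cells and -0.27 in CD74+ cells, against 0.00 and 0.02 over all genes.

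A joint fit over both subsets asked whether any member moved the same way with periostin in each. It took subset as a block over the 4 libraries, had 1 residual degree of freedom and rested on the spread pooled over genes, with any difference between the subsets' responses treated as error. By limma with Benjamini-Hochberg adjustment, 21 of 13837 genes passed an adjusted p of 0.05, which is 0.152%, and 0 of the 5 members did. At an unadjusted p under 0.05 there were 992 genes (7.17%), with Npy the only member. Npy was higher with periostin in both subsets, by 0.80 ± 0.27 (SE) on the log2 scale, with a limma p of 0.0027 and an adjusted p of 0.28, and its adjusted p ranged from 0.094 to 1 over 9 alternatives. Calcrl had -0.49 ± 0.28 (adjusted p = 0.75), Ramp3 0.39 ± 0.41 (0.90), Ramp1 -0.20 ± 0.33 (0.94) and Adra1a 0.01 ± 0.48 (0.999) in the same fit, by limma. By edgeR 20 genes (0.145%) and 0 members passed, and by DESeq2 2 genes (0.0145%) and 0 members.

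Around Npy, its receptor genes gave no values. The genes of the related peptides, Pyy and Ppy, and of the receptors Npy1r, Npy2r, Npy4r, Npy5r and Npy6r had no row in either table and were not analysed here. Dpp4, a peptidase that trims neuropeptide Y, had 25.9 and 19.6 CPM in ACE+ cells, and 13.03 and 14.1 in the CD74+ libraries. Of 9 genes for processing of neuropeptides, only Cpe and Pam had rows. Cpe, a carboxypeptidase that finishes cleaved peptides, had 80.9 and 43.6 CPM in ACE+ vehicle and periostin, and 52.5 and 51.7 in the CD74+ libraries. Pam, the enzyme that amidates the end of neuropeptide Y, lay between 71.8 and 83.8 CPM. Of 11 genes for catecholamine synthesis, transport and breakdown 7 had rows. Ddc, the decarboxylase that makes dopamine, fell from 7.28 to 2.21 CPM in ACE+ cells and stood at 4.13 and 2.24 in CD74+ cells, and the monoamine oxidase gene Maob was under 1.2 CPM in each library.

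Of the 9 adrenergic receptor genes 4 had rows, and Adra1a and Adra2a among them had periostin ratios on opposite sides of 1 in the subsets. Adra2a (ENSMUSG00000033717), the gene of a receptor that lowers cyclic AMP, had 4.45 and 2.06 CPM in ACE+ vehicle and periostin, and 2.63 and 10.9 in the CD74+ ones. It rose 4.13-fold with periostin in CD74+ cells (2.90 to 5.97), where 6.69% of all genes rose, and its ratio in ACE+ cells was 0.463 (0.308 to 0.687), under 2-fold with 1 CPM added. Adra2a was thus lowest in the periostin library of the subset in which Adra1a rose, and highest in that of the subset in which Adra1a fell. Adra1b, another Gq-coupled receptor gene, had 1.38 and 2.26 CPM in ACE+ cells and 1.32 in CD74+ vehicle. In CD74+ periostin it had 0 reads, which allows up to 0.269 CPM, at least 4.89-fold under the vehicle level. With the counting error of the 22 vehicle reads also taken in, the exact interval gives at least 3.65-fold lower. The 0 was worked out from the deposited mean, since Adra1b was left out of the CD74+ table. Over this list, 1 of 4 genes rose and 0 fell in ACE+ cells (1.47% and 1.3% of all genes), and 1 of 3 rose and 1 fell in CD74+ cells (6.69% and 5.25%). With Adra1b counted in CD74+ cells, 1 of 4 rose and 2 fell (7.55% and 9.52% of all genes). Adra1a, a chosen member, was the gene risen in ACE+ cells and 1 of those fallen in CD74+ cells, so nothing is read from these counts.

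**Figure D4:**
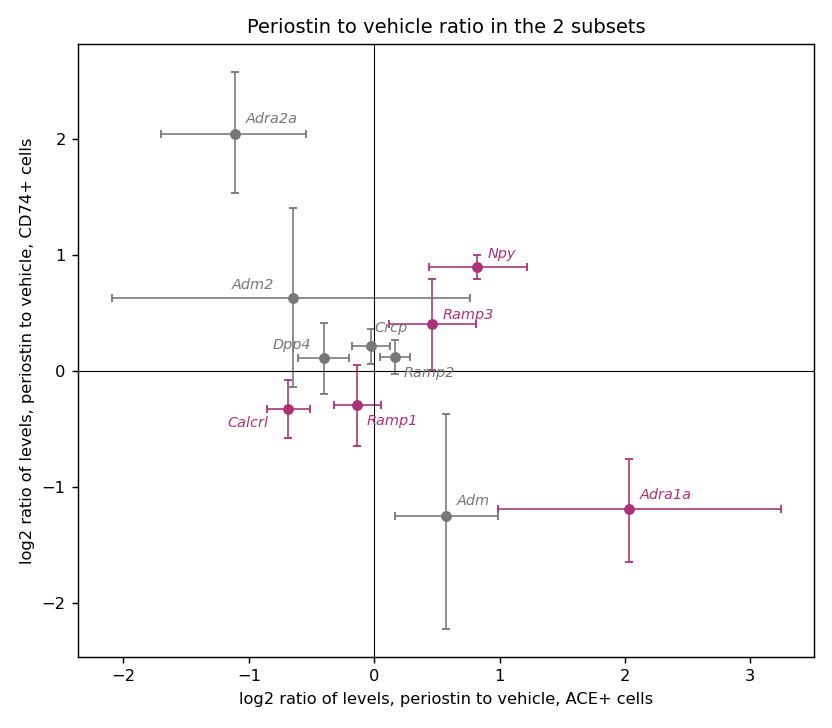
Log2 ratio of levels, periostin to vehicle, in ACE+ cells (horizontal) and CD74+ cells (vertical) for genes of the NPY, adrenergic and CGRP and adrenomedullin families described in the text and listed in both tables; coloured points are members, bars are exact 95% counting intervals, and each comparison holds 1 library per group. Npy and Ramp3 lie above 0 on both axes, Calcrl and Ramp1 below 0 on both (the Ramp1 intervals cross 0), and Adra1a (4.08-fold up, 2.29-fold down) and Adra2a (ratios 0.463 and 4.13) in opposite corners.

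Among CGRP and adrenomedullin genes, Calca, Calcb, Calcr and Iapp had no row. Adm, the adrenomedullin gene, had 4.89 and 7.26 CPM in ACE+ vehicle and periostin, and 2.99 and 1.26 in the CD74+ ones. Its ratio of periostin to vehicle was 1.48 (1.12 to 1.98) in ACE+ cells and 0.420 (0.214 to 0.772) in CD74+ cells, neither past 2-fold with 1 CPM added. Adm2 was under 3 CPM in each library and higher in CD74+ cells. Ackr3, the gene of a scavenging receptor that also takes up adrenomedullin, fell 2.53-fold with periostin in ACE+ cells (1.74 to 3.72). In CD74+ cells it had 1.79 CPM with vehicle and 0 reads with periostin, at least 6.67-fold under the vehicle level by the same limit and at least 5.09-fold lower by the exact interval, again worked out from the deposited mean. Ramp2 ranged from 56.4 to 68.5 CPM, but 33.4% of its exon length is shared with its neighbour Vps25, whose levels of 55.5 to 66.7 CPM ran beside it, so its own level cannot be told apart. Crcp, a component of CGRP receptor complexes that is also a subunit of RNA polymerase III, lay between 40.8 and 56.2 CPM. Of 7 genes of the list compared in each subset, 0 rose and 1 fell in ACE+ cells (1.47% and 1.3% of all genes). In CD74+ cells 0 rose and 0 fell (6.69% and 5.25% of all genes). The medians were -0.02 in ACE+ cells and 0.12 in CD74+ cells. With Ackr3 counted in CD74+ cells, 0 of 8 rose and 1 fell, against 7.55% and 9.52% of all genes.

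The genes of signalling components below these receptors all or nearly all had rows, though Pde4c and Gnao1 had 0 reads in both CD74+ libraries. All 23 genes of Gs and cyclic AMP signalling had rows, with 0 risen and 1 fallen in ACE+ cells and 1 risen and 1 fallen of 22 compared in CD74+ cells. For this and the following lists, 1.47% of all genes rose and 1.3% fell in ACE+ cells. In CD74+ cells 6.69% of all genes rose and 5.25% fell. The 2 genes of the Gs and cyclic AMP list with the largest changes encode sensors of cyclic AMP that activate Rap GTPases. Rapgef3 fell from 2.69 to 0.538 CPM in CD74+ cells and stood at 10.98 and 15.7 in ACE+ vehicle and periostin. Rapgef4 rose from 1.49 to 4.66 CPM in CD74+ cells and fell from 5.02 to 1.72 in ACE+ cells. The list had a median log2 change of -0.03 in ACE+ cells and -0.34 in CD74+ cells. In CD74+ cells the median of all genes ran from 0.45 in the shortest length class to -0.28 in the longest. The list was not compared with genes of like length. Between vehicle libraries 7 of the 23 were at least 2-fold lower in CD74+ cells and 0 higher, against 10.1% and 3.88% of all genes, with a median of -0.44 against -0.02 over all genes. Between periostin libraries 5 were lower and 1, Rapgef4, was higher, against 15.9% and 7.89% of all genes. For Gi and Gq signalling, 21 of 22 genes had rows, 20 were compared, and 0 rose and 0 fell in ACE+ cells. In CD74+ cells 0 rose and Plcb3, a phospholipase C gene activated by Gq, fell from 25.1 to 11.8 CPM. Gnai1, a Gi subunit gene, stood at 0.628 against 2.15 CPM there. Between vehicle libraries 1 of the 20 was at least 2-fold higher in CD74+ cells and 1 lower, with a median of -0.33. Between periostin libraries 1 was higher and 4 were lower, with a median of -0.44. The shares of all genes are those given for the Gs and cyclic AMP list. Of the 7 genes for receptor kinases and arrestins, which switch such receptors off, 0 passed 2-fold in ACE+ cells, and Grk4 rose from 3.53 to 8.25 CPM in CD74+ cells, while Grk3 stood at 28.1 against 45.4.

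The authors' deposited tables of annotation terms, which their names give as made on genes that went up, hold 2 of the 6 members. In the authors' deposited table for ACE+ cells, Adra1a is in 27 of 637 terms and Npy in 11. Of these terms 5 and 6 had a Benjamini adjusted p under 0.05, and for Adra1a they include the calcium signalling pathway (28 genes, adjusted p of 0.00297). In the authors' deposited table for CD74+ cells, Npy is in 3 of 548 terms, and Adra1a, Adrb1, Ramp1, Ramp3 and Calcrl are in 0. The authors' deposited log2 fold changes were 0.82 and 0.90 for Npy and 2.03 and -1.19 for Adra1a in ACE+ and CD74+ cells.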

How the data were processed

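Per the submitters' processing notes, reads were aligned with HISAT2 to GRCm38. The counting tool, annotation and strand setting are not stated in the sources used here. The authors deposited, per subset, a signal for each gene and library. Dividing every column by its smallest step returned whole reads for 100% of values, to within 0.001 read, so the signal is scaled counts. The authors' deposited mean signal matched that of all 4 libraries in each of the 14398 genes that both tables list, so levels could be set across tables, and reads of genes left out of 1 table were worked out from it for 2969 genes. A gene was listed only with at least 1 read in both libraries of its table. The authors' deposited log2 fold changes are log2 ratios without pseudocount. The authors' deposited enrichment sheets give a p-value per term.

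Signal was divided by the mean column total, 15573211, and multiplied by 1000000 (CPM). Gene length is the authors' deposited length, and coordinates and exon overlap are from GENCODE M21. Intervals are conditional binomial for ratios and Poisson for levels. The common fit used limma 3.58.1 on log2(CPM + 1), with edgeR 4.0.16 and DESeq2 1.42.0 on recovered reads as alternatives. The limma and edgeR fits were tested on simulated data. The plan had assumed counts or CPM. The p-values of the common fit rest on a spread pooled over genes and measure no spread between replicates, since each group holds 1 library. The members and gene lists were chosen with earlier results of these data known. Named genes were all members, the 5 nearest in profile to Npy and to Adra1a, family genes with at least 1 CPM (1 of them is not reported here), and from each other pathway list the 2 with the largest change with periostin. For 0 reads, the limit used was 3 reads.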

Additional observations from a re-analysis of the deposited data

Results flagged for a closer look

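For 9 genes named here the ratio of periostin to vehicle lay on opposite sides of 1 in the subsets, with counting intervals clear of 1 in both. Adra1a had ratios of 4.08 in ACE+ cells and 0.438 in CD74+ cells. Adra2a had the reverse, 0.463 and 4.13. Adm had 1.48 and 0.420. Rapgef3 had 1.43 and 0.200, and Plcb3 had 1.33 and 0.468. Rapgef4 had 0.342 and 3.12, Vipr2, with 4 reads in CD74+ vehicle, 0.391 and 12.4, and Chrm3 0.753 and 2.29. Maob, from 18 reads or fewer per library, had 0.348 and 3.30. The share of all genes that meet this rule was not counted. Rapgef3, Rapgef4, Plcb3, Vipr2, Chrm3 and Maob were named for their large changes with periostin, so nothing is read from the count. With 1 library per group the difference between the subsets was not tested for any of these genes.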

How the results depend on the processing

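Of 149 member values of the 4 comparisons of 2 libraries recomputed under an alternative, 148 had the sign of the main value, the exception being Ramp3 between vehicle libraries, and 0 of the changes past 2-fold turned. The 1 member past 2-fold in ACE+ cells, Adra1a, became 0 with 5 CPM added or with a minimum of 5 CPM, and in CD74+ cells 0 with 5 CPM added or with the length median subtracted. The 3 and 2 members past 2-fold between subsets became 2 to 3 with vehicle and 2 to 3 with periostin. Counts over all genes moved more. Against 217 and 191 genes higher and lower in ACE+ cells, alternatives gave 19 to 644 and 9 to 574. Against 928 and 728 in CD74+ cells they gave 126 to 1463 and 209 to 1401, the last when genes absent from that table were counted, an alternative chosen after seeing the data. Between subsets the ranges were 204 to 1006 and 514 to 2000 with vehicle, and 311 to 1692 and 841 to 2739 with periostin. The 21 genes of the common fit became 7 with 0.1 CPM added, 25 with 5 CPM added, 0 without a minimum, 10 with a minimum of 5 CPM, 20 with scaling by library total, 20 by edgeR, 2 by DESeq2 and 0 without the subset block. In that fit the Adra1a value of 0.01 became -0.16 with 5 CPM added and -0.017 with scaling by library total. The cause of these moves was not tested. Vehicle and periostin were paired by subset alone, the block of that fit, since each group holds 1 library and the labels give no replicate numbers; for the same reason no library could be left out. Scaling by library total moved the median of all genes by -0.12 in the comparison of subsets with periostin.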

Other observations

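Vipr2, Chrm3 and Gal, from other neuropeptide and transmitter systems, each had their highest level in CD74+ periostin. Of 26 further genes for receptors of neuropeptides and transmitters 11 had rows, and 7 could be compared in CD74+ cells. Of these 2 rose and 0 fell, where 6.69% and 5.25% of all genes did, and all 7 lay above vehicle (median log2 change 0.44, against 0.02 over all genes). Vipr2, Sstr2, Drd1 and Htr2b were under 1 CPM with vehicle and passed the minimum only through their periostin level. Sstr4, at 0.598 CPM with vehicle and 0.449 with periostin, was left out by that minimum. Nothing is therefore read from the shared direction or the median. Vipr2 and Chrm3 were named for the largest changes of the list. Vipr2, a receptor gene for vasoactive intestinal peptide, rose from 0.239 to 2.96 CPM in CD74+ cells (4 and 33 reads), 12.4-fold (4.40 to 48.1). With 1 CPM added its log2 change was 1.68. It stood at 1.51 and 0.589 CPM in ACE+ vehicle and periostin. Chrm3, a muscarinic acetylcholine receptor gene, rose 2.29-fold in CD74+ cells (1.71 to 3.09) and had 6.71 and 5.05 CPM in ACE+ cells. In ACE+ cells 1 of 8 genes of the list, the related receptor gene Vipr1, rose and 0 fell (1.47% and 1.3% of all genes), with a median of -0.29.

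Of 13 other neuropeptide genes 5 had rows. Gal, which encodes galanin, rose from 0.837 to 4.13 CPM with periostin in CD74+ cells, 4.93-fold (2.66 to 9.71), and had 1.82 and 1.13 CPM in ACE+ cells. Cartpt, a peptide gene of the brain and gut, had 0.815 and 2.55 CPM in ACE+ cells and 0 reads in both CD74+ libraries. The remaining marker lists are given as sums. With vehicle and periostin in ACE+ cells, then likewise in CD74+ cells, they came to 135, 119, 98.4 and 117 CPM for Schwann cells and 68.1, 69.1, 46.0 and 53.02 for smooth muscle and pericytes. Stromal progenitor markers summed to 924, 1048, 967 and 852 CPM. T and NK cell markers summed to 10.4, 20.6, 12.3 and 3.499 CPM. Neutrophil markers summed to 22909, 27656, 12559 and 20050 CPM, erythroid markers to 1500, 1781, 268 and 460.4, and mast cell and basophil markers to 39.3, 31.2, 16.98 and 24.9.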
